A study of Danio rerio with 8 samples.

Results

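Dopamine and serotonin are monoamine transmitters that neurons make from the amino acids tyrosine and tryptophan. A hydroxylase sets the pace of the pathway, tyrosine hydroxylase for dopamine and tryptophan hydroxylase for serotonin, and both enzymes use the cofactor tetrahydrobiopterin. Aromatic amino acid decarboxylase then completes either transmitter, a vesicular transporter loads it into synaptic vesicles, and a dedicated transporter of the plasma membrane takes it back up after release. In zebrafish, dopamine neurons lie mainly in the ventral forebrain, olfactory bulb and retina, and serotonin is made in the raphe, the hypothalamus, the pineal gland and cells outside the brain.

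The genes described here were 10 listed by symbol. The list places *th*, *th2* and *slc6a3* under dopamine, and *tph1a*, *tph1b*, *tph2* and *slc6a4a* under serotonin. It gives *ddc*, *qdpra* and *slc18a2* as shared by both. These classes are labels of the list, and the transmitter that each gene serves was not examined. Of the 10 genes, 9 were found among the 20409 genes of the deposited table, while *th2* had no entry and was not analysed here. The NCBI gene identifiers in the table are 30384 for *th*, 80787 for *slc6a3*, 352943 for *tph1a*, 415103 for *tph1b*, 407712 for *tph2*, 664719 for *slc6a4a*, 406651 for *ddc*, 566323 for *qdpra* and 553304 for *slc18a2*. The authors describe a filter at a mean above 1 CPM, a read count scaled to the size of its library, but 235 genes of the deposited, normalized table average 1 CPM or less.

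RNA was measured in whole, untreated larvae of *elipsa*, a line with a mutation in the ciliary gene *traf3ip1* (allele tp49d), at 4 dpf (days post-fertilization). *elipsa* mutants (-/-) were recognised by their downward-curled tail, and controls were their siblings, a mix of wild-type and heterozygous (+/-) larvae from crosses of heterozygous parents. Each of 4 clutches gave 1 mutant and 1 control tube of about 30 pooled larvae, which makes 4 mutant and 4 control libraries. The comparison asks which transcript levels differ between larvae with and without the *traf3ip1* defect. Values are log2 CPM, and a difference is mutants minus controls on this scale.

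*traf3ip1* itself was at 1.61 to 2.36 log2 CPM in mutants, against 2.63 to 3.03 in controls, and each mutant library lay below its clutch partner (difference -0.83, standard error 0.18, adjusted p = 0.0751 from limma). The libraries of clutch 1 stood apart in genes of the exocrine pancreas, whose summed CPM over 17 genes was 624 in mutant 1 and 2770 to 3414 in the other mutants, against 1172 in control 1 and 5348 to 6932 in the other controls. The deposited values had nearly the same distribution in every library, so depth cannot be read from them and no counting interval is printed. None of the 9 genes lies on the chromosome of *traf3ip1* in the RefSeq table.

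In *elipsa* mutants, *tph2* of serotonin synthesis and *qdpra* of cofactor recycling fell, and 5 other genes of synthesis and vesicle loading had lower values than in controls without passing the test. The genes of the plasma membrane transporters of dopamine and serotonin, *slc6a3* and *slc6a4a*, had slightly higher values that did not pass either. That of noradrenaline, *slc6a2*, which is not among the 9, had a difference of -0.18 (adjusted p = 0.753 from limma). This grouping by role was made after the values had been seen. The 7 genes *th*, *tph1a*, *tph1b*, *tph2*, *ddc*, *qdpra* and *slc18a2* were each lower in the mutants of all 4 clutches, as were 14.4% of all genes, and their differences ranged from -0.70 to -0.41. *slc6a3* and *slc6a4a* had differences of 0.10 and 0.14. By limma's moderated test over all 20409 genes, with Benjamini-Hochberg adjustment and a call at an adjusted p under 0.1, *tph2* and *qdpra* fell, and no member rose. Calls over all genes were 1.16% lower and 0.363% higher. When the fit held clutch as a block, 6 of the 9 were called lower (*th*, *tph1a*, *tph1b*, *tph2*, *ddc* and *qdpra*) and 0 higher, while over all genes 7.86% were called lower and 6.48% higher. In RNA of whole larvae, fewer cells of a type and less RNA per cell cannot be told apart.

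**Figure D1:**
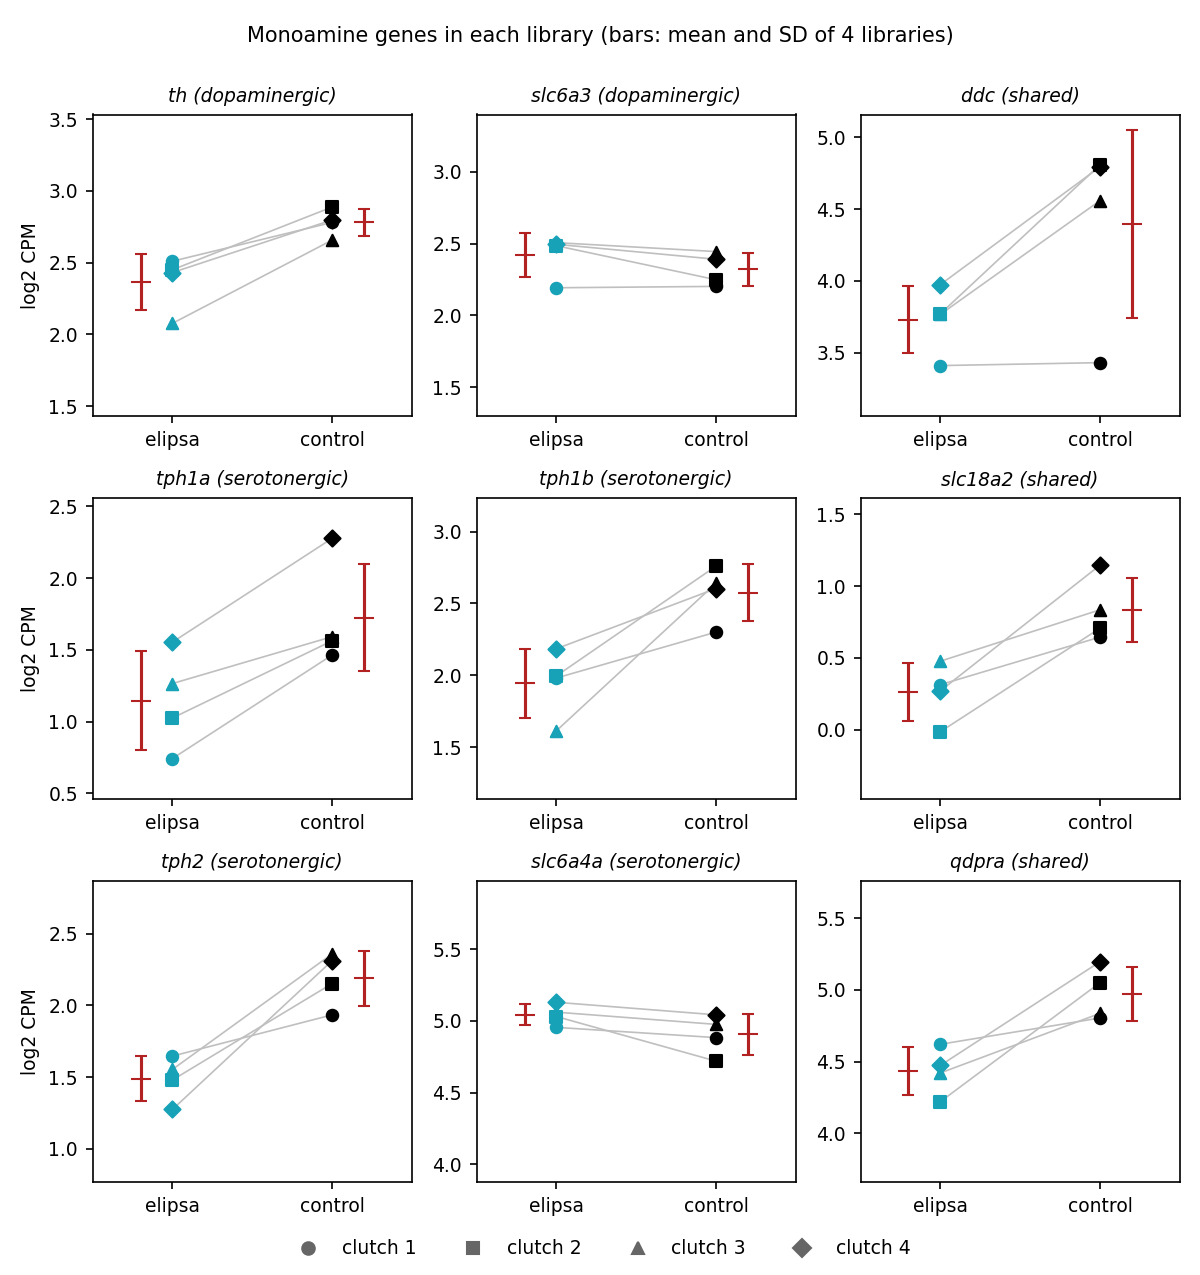
Log2 CPM (vertical axes, each spanning the same log2 range) of the 9 measured monoamine genes in each library, *elipsa* mutants on the left and controls on the right of each panel, with lines joining the libraries of a clutch and bars for the mean and SD of 4 libraries. The lines slope up from mutants to controls for 7 genes, nearly flat for *ddc* in clutch 1, while those of *slc6a3* and *slc6a4a* are nearly level or slope down.

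Among the hydroxylases, *tph2*, a tryptophan hydroxylase gene, had 1.65, 1.48, 1.55 and 1.27 log2 CPM in the mutants of clutches 1 to 4, against 1.93, 2.15, 2.36 and 2.31 in the controls. Every mutant library lay below every control library. The mean was 1.49 ± 0.16 (SD, n = 4) in mutants and 2.19 ± 0.19 (SD, n = 4) in controls, and *tph2* fell by 0.70 on the log2 scale (95% interval -1.04 to -0.36, standard error 0.15, adjusted p = 0.0849 from limma, 0.0301 with clutch as a block). This corresponds to a level 38.4% lower in mutants on the linear scale. The call did not hold without any one of 7 of the 8 libraries, all but control 1, and its adjusted p then reached 0.259. Without control 1 it was 0.0383.

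*tph1b*, a paralog that also encodes a tryptophan hydroxylase, had 1.98, 2.00, 1.61 and 2.18 log2 CPM in the mutants of clutches 1 to 4, against 2.30, 2.76, 2.64 and 2.60 in the controls. The groups did not overlap, and mutant 3 was the lowest library. The difference of -0.63 (standard error 0.16, 95% interval -0.998 to -0.27) was not called without the clutch term (adjusted p = 0.154 from limma) and was called with it (adjusted p = 0.0359). Without the clutch term it was called when control 1 was left out (adjusted p = 0.0603) and with none of the other 7 libraries left out (adjusted p of up to 0.398). With the clutch term the call ended without clutch 2 (adjusted p = 0.127) or clutch 3 (adjusted p = 0.152).

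*tph1a*, the other *tph1* gene, had 0.74, 1.03, 1.27 and 1.55 log2 CPM in the mutants of clutches 1 to 4, against 1.46, 1.56, 1.59 and 2.28 in the controls. Here the groups overlapped, since mutant 4 was above control 1, and both libraries of clutch 4 were the highest of their group. The difference within a clutch was between -0.72 and -0.33. On average it was -0.58 (standard error 0.24, 95% interval -1.11 to -0.04), with an adjusted p of 0.385 from limma without the clutch term and 0.0528 with it.

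Summed over *tph1a*, *tph1b* and *tph2*, the transcripts of tryptophan hydroxylases came to 8.75, 8.81, 8.40 and 9.90 CPM in the mutants of clutches 1 to 4, against 11.5, 14.2, 14.4 and 15.9 CPM in the controls. The mean of this sum was 8.97 ± 0.65 CPM (SD, n = 4) in mutants and 13.99 ± 1.82 CPM (SD, n = 4) in controls, which is 35.9% lower. These CPM are not divided by transcript length, so the shares of the 3 paralogs in the sum are not compared.

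*th*, which encodes tyrosine hydroxylase, had 2.51, 2.45, 2.08 and 2.43 log2 CPM in the mutants of clutches 1 to 4, against 2.78, 2.89, 2.66 and 2.80 in the controls. All mutants were below all controls, and clutch 3 held the lowest library of either group. The mean was 2.37 ± 0.20 (SD, n = 4) in mutants and 2.78 ± 0.09 (SD, n = 4) in controls, and they differed by -0.41 (standard error 0.13, 95% interval -0.71 to -0.11, adjusted p = 0.257 from limma, 0.0592 with the clutch term). The level was 24.9% lower on the linear scale, the smallest deficit of the 7 genes that were lower in every clutch.

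*ddc*, the gene of the decarboxylase that both pathways use, had 3.41, 3.77, 3.77 and 3.97 log2 CPM in the mutants of clutches 1 to 4, against 3.43, 4.81, 4.56 and 4.80 in the controls. In clutch 1 the pair differed by -0.02, and in clutches 2, 3 and 4 by -1.04, -0.79 and -0.82. Control 1 alone placed the groups in overlap. Over 8 libraries the difference was -0.67 (standard error 0.28, 95% interval -1.30 to -0.03, adjusted p = 0.401 from limma, 0.0286 with clutch as a block). Without control 1 it was -0.99 (adjusted p = 0.00987), and without the whole of clutch 1 it was -0.88 (adjusted p = 0.00521, or 0.00203 with the block). Leaving out any of the other 7 libraries gave no call (adjusted p of up to 0.715), and with the block the call ended without clutch 2, 3 or 4 (adjusted p = 0.11, 0.121 and 0.12). The low *ddc* values of clutch 1 went with the low sums of exocrine pancreas genes given above, whose part in them was not tested.

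*qdpra*, which encodes dihydropteridine reductase, the enzyme that recycles the hydroxylase cofactor, had 4.62, 4.22, 4.42 and 4.47 log2 CPM in the mutants of clutches 1 to 4, against 4.80, 5.05, 4.84 and 5.20 in the controls. The groups were separate, and the pair of clutch 1 was the closest. *qdpra* fell by 0.54 on the log2 scale (standard error 0.12, 95% interval -0.80 to -0.27, adjusted p = 0.0877 from limma, 0.0175 with clutch as a block), a level 31.1% lower. Leaving out 1 library ended the call in 6 of 8 cases, all but mutant 1 and control 1, and its adjusted p then reached 0.261. The reductase acts for phenylalanine hydroxylase too, so *qdpra* is not a gene of monoamine cells alone.

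*slc18a2*, the vesicular monoamine transporter gene, had 0.31, -0.014, 0.48 and 0.27 log2 CPM in the mutants of clutches 1 to 4, against 0.65, 0.71, 0.84 and 1.15 in the controls. Mutants and controls did not overlap. The difference of -0.57 (standard error 0.19, 95% interval -1.004 to -0.14) was called in neither fit, with an adjusted p of 0.282 from limma and 0.11 with the clutch term.

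The transporters that return the transmitters to the neuron gave another picture. *slc6a3*, the dopamine transporter gene, had 2.19, 2.48, 2.51 and 2.49 log2 CPM in the mutants of clutches 1 to 4, against 2.202, 2.25, 2.44 and 2.39 in the controls. The groups overlapped, and both libraries of clutch 1 were low. Its difference was 0.10 (standard error 0.13, 95% interval -0.19 to 0.39, adjusted p = 0.816 from limma).

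*slc6a4a*, a serotonin transporter gene, had 4.96, 5.03, 5.06 and 5.13 log2 CPM in the mutants of clutches 1 to 4, against 4.88, 4.72, 4.98 and 5.04 in the controls. It was higher in the mutants of all 4 clutches, as were 18.0% of all genes, with groups that overlapped. The difference was 0.14 (standard error 0.09, 95% interval -0.06 to 0.34, adjusted p = 0.591 from limma, 0.247 with clutch as a block). The intervals of *slc6a3* and *slc6a4a* both include no change. These transporters were set apart from the other genes after the values had been seen. Whether the transporters differ from the other genes was not tested.

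**Figure D2:**
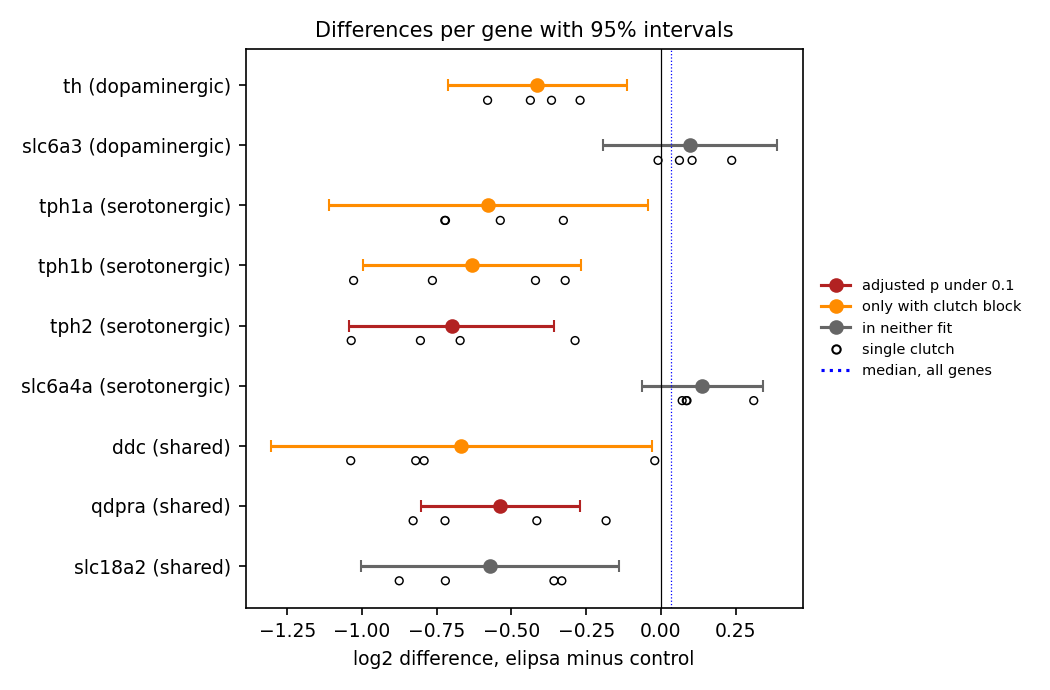
Log2 difference, *elipsa* mutants minus controls (horizontal axis), for each of the 9 genes, with filled points for the fitted difference, bars for its 95% interval and open points for the 4 single clutches. The intervals are not adjusted for the number of genes tested, and those of *slc6a3* and *slc6a4a* include 0. Only *tph2* and *qdpra* pass the adjusted threshold without the clutch term.

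By transmitter, the largest differences among the serotonin genes were those of the 3 tryptophan hydroxylase genes. The median difference was -0.16 over the 2 measured dopamine genes, -0.60 over the 4 serotonin genes and -0.57 over the 3 shared genes, against 0.03 over all genes. The dopamine median is the middle of unlike values, -0.41 for *th* and 0.10 for *slc6a3*, and in both classes the membrane transporter was the exception. Called without the clutch term were none of the dopamine genes, 1 of the serotonin genes (*tph2*) and 1 of the shared genes (*qdpra*), and with it 1, 3 and 2. Over all genes, 1.16% were called lower without the clutch term and 7.86% with it. Whether the classes differ was not tested, since genes are not replicates.

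Complete separation of the groups, every mutant below every control, held for 5 of the 9 genes, *th*, *tph1b*, *tph2*, *qdpra* and *slc18a2*, against 3.34% of all genes. The median difference of the 9 genes was -0.27 in clutch 1, -0.67 in clutch 2, -0.42 in clutch 3 and -0.72 in clutch 4, while the median over all genes was between 0.01 and 0.04. Clutch 1 thus had the smallest deficit, as it had for *ddc*, *qdpra*, *tph1b*, *tph2*, *th* and *slc18a2* taken singly, but not for *tph1a*. Without clutch 1, 4 of the 9 genes were called lower (*tph1b*, *tph2*, *ddc* and *qdpra*), against 4.10% of all genes, and with the clutch term in addition 5 were, *th* being the fifth, against 8.04% of all genes. Without clutch 2, 3 or 4, none of the 9 was called. Calls over all genes, lower and higher together, also fell, to 87, 80 and 117, from 311 with every library kept, against 1075 without clutch 1. The loss of calls was thus not particular to the 9. With the clutch term, 2 (*tph2* and *qdpra*), 1 (*qdpra*) and 2 (*tph1b* and *qdpra*) of the 9 were called without clutch 2, 3 and 4. Over all genes 1584, 1289 and 1466 were then called, lower and higher together, against 2879 without clutch 1. Lower calls alone are not given for the fits without clutch 2, 3 or 4. The counts of the 9 are therefore not set against a share of lower calls there. The call of *tph1a* with the clutch term ended without any one clutch (adjusted p of up to 0.18), that of *th* without clutch 2, 3 or 4 (up to 0.215) and that of *tph2* without clutch 3 or 4 (up to 0.127).

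A hydroxylase gene can be read against the membrane transporter gene of the same transmitter within a library, which removes whatever scales both alike. RNA of whole larvae does not show whether both genes of a pair were expressed in the same cells. These pairs were set side by side after the values had been seen, so no test is given, and other pairs of genes were not examined. Their differences follow from those of the single genes given above and add no further evidence. The paralog *slc6a4b* was not among the measured genes, so *slc6a4a* stands for serotonin transport here. The log2 ratio of *tph2* to *slc6a4a* was -3.31, -3.55, -3.51 and -3.86 in the mutants of clutches 1 to 4, against -2.95, -2.57, -2.62 and -2.73 in the controls. All mutants lay below all controls, with a difference of -0.84 on average. The ratios of *tph1a* and *tph1b* to *slc6a4a* did not overlap between the groups either, and differed by -0.72 and -0.77. The ratio of *th* to *slc6a3* was 0.32, -0.03, -0.43 and -0.06 in the mutants of clutches 1 to 4, against 0.58, 0.64, 0.21 and 0.41 in the controls. It overlapped between the groups, since mutant 1 was above control 3, but was lower in the mutant of each clutch, by 0.51 on average.

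**Figure D3:**
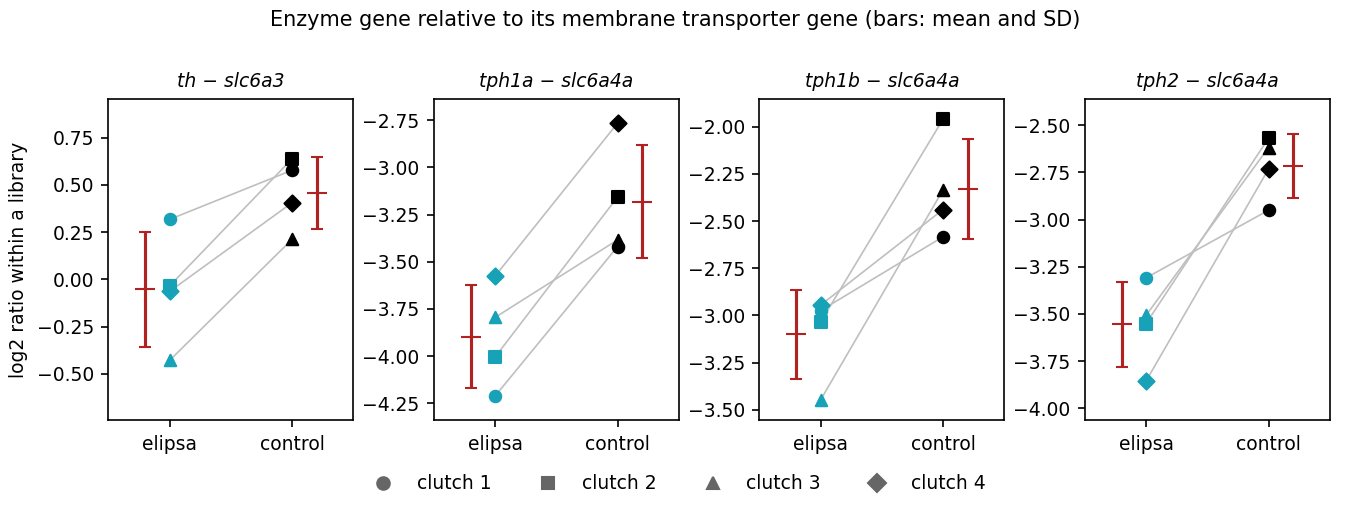
Log2 ratio within a library (vertical axes of equal span) of each hydroxylase gene to the membrane transporter gene of its transmitter, *elipsa* mutants on the left and controls on the right, with lines joining the libraries of a clutch and bars for the mean and SD of 4 libraries. Each of the 4 ratios is lower in the mutant of every clutch, which follows from the values of the single genes.

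The 9 genes did not all vary together from library to library. Over the 8 libraries, which share clutch and genotype, 25 of the 36 pairs of genes had a positive Pearson correlation of log2 CPM, with a median of 0.63 and a range of -0.66 to 0.92, which reflects the difference between the groups as well as the clutches. Removing the group means leaves differences between clutches and between single libraries. After this, 25 of the 36 pairs were again positive, with a median of 0.26 and a range of -0.56 to 0.74. *tph1a* and *slc6a4a* were at the top of that range and *th* and *slc6a3* at the bottom. The deviations of *tph1a*, *slc6a3* and *slc6a4a* had correlations of 0.65 to 0.74 with each other. Those of *qdpra* and *slc18a2* had 0.70, and those of *th* and *tph1b* had 0.66.

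Among 14850 genes with a proper symbol and a mean of at least 1 log2 CPM, those most like *tph2* over the 8 libraries were *cnga1a*, the gene of a cyclic nucleotide-gated channel subunit of rods, *tent5ab* and *klhl41a*, a muscle gene, with Pearson correlations of 0.971 to 0.978. *cnga1a*, *tent5ab* and *klhl41a* fell by 1.67, 2.03 and 0.51 on the log2 scale. Most like *th* were *nppc*, which encodes C-type natriuretic peptide, *rcan2*, a regulator of calcineurin, and *usp6nl*, with 0.988, 0.980 and 0.974, none of which was called. Most like *slc6a3* were *zfyve26*, *reln*, the gene of the matrix protein reelin, and *ttyh3b*, with 0.982, 0.976 and 0.973, and differences of 0.11, 0.09 and 0.10. These are the best matches among many genes over 8 libraries that share clutch and genotype, and are given as a description.

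None of 16 other measured genes of monoamine synthesis, cofactor supply, transport and breakdown was called. The clutch term brought 4 of them to a call, each lower, where 7.86% of all genes were called lower with it. Their median difference was -0.14, and 11 of the 16 differences were negative. *gch1*, which encodes GTP cyclohydrolase 1, the first enzyme of cofactor synthesis, had 1.18, 0.73, 1.23 and 1.45 log2 CPM in the mutants of clutches 1 to 4, against 1.86, 1.88, 1.68 and 1.76 in the controls. The groups did not overlap. They differed by -0.64 (adjusted p = 0.192 from limma, 0.0605 with the block). The other cofactor genes on this list had no common direction, and none was called in either fit. Differences were 0.32 for *pts*, 0.22 for *gch2* and 0.83 for *sprb*, whose 95% interval was wide (-1.63 to 3.29). Those of *spra*, *pcbd1* and *qdprb1* were -0.14, -0.14 and -0.07. *pah*, the phenylalanine hydroxylase gene, which supplies tyrosine, differed by -0.51 (adjusted p = 0.254 from limma, 0.00214 with the block). The other 2 called with the block encode enzymes that break monoamines down, *mao* for monoamine oxidase with -0.41 (adjusted p = 0.482 from limma, 0.0241 with the block) and *comta* for catechol-O-methyltransferase with -0.32 (0.401 and 0.0541). In clutch 1, *mao* had 4.67 log2 CPM in the mutant and 4.76 in the control, the lowest of each group, as *ddc* did. The noradrenaline genes *dbh*, of dopamine beta-hydroxylase, and *slc6a2*, of the noradrenaline transporter, had differences of -0.08 (95% interval -0.43 to 0.27) and -0.18 (95% interval -0.61 to 0.24).

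Of 10 measured dopamine receptor genes, 1 fell and 0 rose, and the median difference was 0.14. Over all genes 1.16% were called lower, and 7.86% with the block. The gene that fell was *drd4a*, one of the genes of the D4 receptor, which photoreceptors also carry in mice. *drd4a* had 1.96, 2.07, 1.78 and 1.52 log2 CPM in the mutants of clutches 1 to 4, against 2.42, 2.76, 2.43 and 2.69 in the controls, and fell by 0.74 (standard error 0.16, adjusted p = 0.0808 from limma). Its paralog *drd4b* had a difference of -0.61 (adjusted p = 0.302 from limma, 0.0988 with the block). In contrast, *drd4-rs*, also on this list, had 0.23 (adjusted p = 0.752 from limma). Of the 10 differences, 3 were negative. Of 12 serotonin receptor genes none was called in either fit (median difference -0.07), and the smallest p belonged to *htr1ab* (0.43, adjusted p = 0.553) and *htr3b* (-0.30, adjusted p = 0.579). Of 13 adrenergic receptor genes none was called (median -0.07), and 1, *adrb2b*, was lower with the block (-0.53, adjusted p = 0.238 from limma, 0.0623 with the block), while *adra2da* had a difference of 0.34 (adjusted p = 0.333).

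Transcription factor genes of monoaminergic neurons had no common direction. Of 24 measured, none was called, 11 differences were negative, and the median was 0.01. The clutch term gave 3 lower and 3 higher calls, where over all genes it gave 7.86% lower and 6.48% higher. The smallest p belonged to *etv5b*, an ETS factor gene linked to serotonergic cells of the zebrafish hypothalamus, with -0.39 (adjusted p = 0.128 from limma, 0.0097 with the block), and *foxa2*, with -0.57 (adjusted p = 0.24 from limma, 0.0147 with the block). *fev*, the factor that specifies serotonin neurons, was looked up after its value had been seen. It had 2.09, 1.85, 2.26 and 2.09 log2 CPM in the mutants of clutches 1 to 4, against 2.59, 2.85, 2.46 and 2.33 in the controls. The groups did not overlap, and the difference of -0.48 was called in neither fit (adjusted p = 0.254 from limma, 0.1002 with the block). Also on this list, *lmx1ba* had a difference of -0.58 (adjusted p = 0.263 from limma, 0.0179 with the block). Those of *lmx1bb*, *gata2a* and *gata3* were -0.02, 0.09 and 0.11.

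Neither general neuronal genes nor genes of other transmitters had a called member, where 1.16% of all genes were called lower and 0.363% higher. With the clutch term, 7.86% of all genes were called lower and 6.48% higher. For 22 pan-neuronal genes (4 lower and 1 higher with the clutch term) the median difference was -0.12. Smallest in p were *nefla*, of a neurofilament, with -0.47 (adjusted p = 0.276 from limma, 0.00832 with the block), and *stxbp1b*, of vesicle release, with -0.26 (adjusted p = 0.302 from limma, 0.0356 with the block). Their list's summed CPM was 4061 to 4434 in mutants and 4017 to 4584 in controls. For 15 genes of glutamate, GABA, glycine and acetylcholine transmission (5 lower with the clutch term) 13 differences were negative, with a median of -0.29. Their summed CPM was 636 to 750 in mutants and 751 to 809 in controls. The 2 of smallest p were *chata*, the choline acetyltransferase gene, with -0.37 (adjusted p = 0.159 from limma, 0.0193 with the block), and *gad2*, which makes GABA, with -0.37 (adjusted p = 0.243 from limma, 0.00505 with the block). The sums of the other-transmitter genes only just missed overlapping, with 750 CPM in mutant 2 and 751 CPM in control 1. How often such sums separate the groups was not examined. Whether the lists differ was not tested.

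Retina and pineal gland hold cells that make dopamine or serotonin, and markers of their photoreceptors moved with the genotype. Of 15 photoreceptor and pineal markers 10 fell, by a median over the list of -1.69, and 0 rose, while the clutch term gave 12 lower calls and 1 higher. Calls over all genes were 1.16% lower and 0.363% higher, and with the clutch term 7.86% lower and 6.48% higher. The 4 of smallest p, all of phototransduction, were *gnat2*, *pde6a*, *gnat1* and *gngt1*, with differences of -2.53, -2.45, -3.00 and -2.83 (adjusted p = 0.00039, 0.000468, 0.000616 and 0.00105 from limma). Summed over all 15 markers of the list, CPM was 1188 to 1298 in mutants, against 3788 to 7297 in controls, with control 1 the lowest of the controls. Of the pineal genes, looked up after their values had been seen, *exorh*, the opsin gene of pineal photoreceptors, fell by 1.04 (adjusted p = 0.061 from limma). *aanat2* and *asmt*, the genes of the enzymes that turn serotonin into melatonin, had differences of opposite sign. *aanat2* had 2.19, 2.54, 2.37 and 2.90 log2 CPM in the mutants of clutches 1 to 4, against 0.71, 1.09, 0.39 and 2.84 in the controls, a difference of 1.24 (adjusted p = 0.332 from limma, 0.0274 with the block) to which clutch 4 added little. *asmt* had a difference of -0.49, lower in each clutch (adjusted p = 0.335 from limma, 0.138 with the block). The list marks photoreceptors and the pineal gland, not other cells of the retina. The part of retinal and pineal cells in the lower *tph* and *th* values was not tested.

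**Figure D4:**
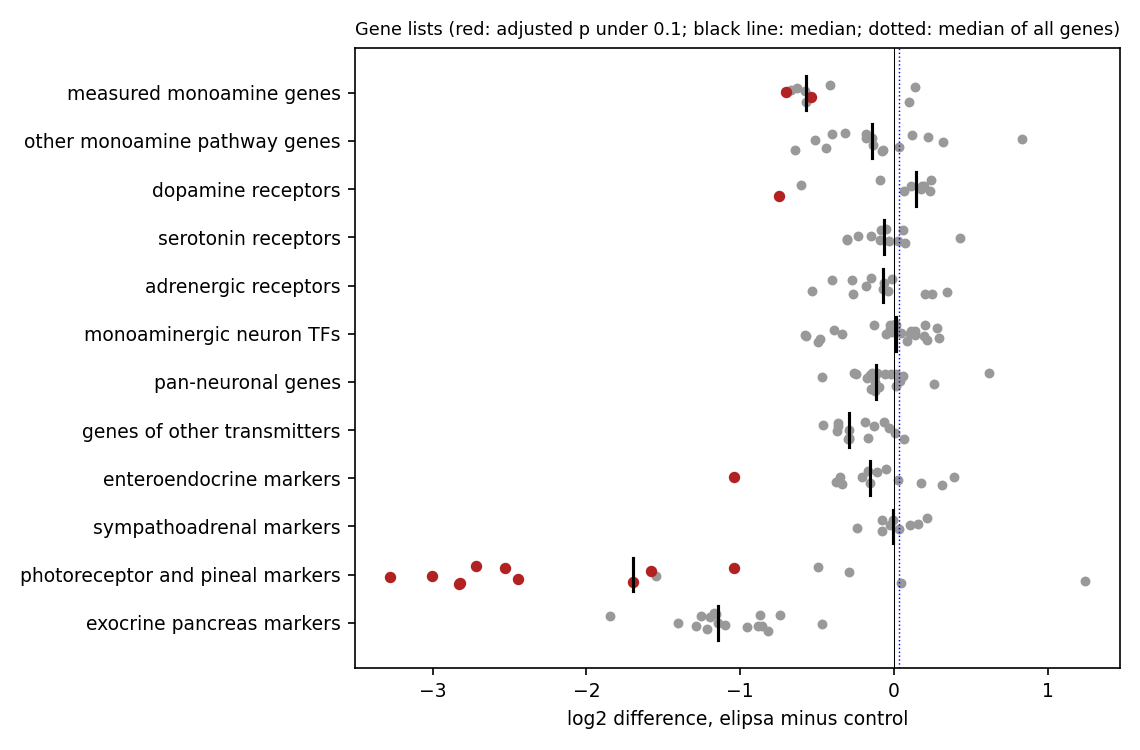
Log2 difference, *elipsa* mutants minus controls (horizontal axis), of each gene (points, red where the adjusted p is under 0.1) in the measured monoamine genes and 11 other lists, with black lines for each list's median and a dotted line for that of all genes. The median of the 9 monoamine genes is -0.57, beside -0.14 for the other genes of the pathway and -0.29 for genes of other transmitters. It is -0.12 for pan-neuronal genes, -1.15 for exocrine pancreas markers and -1.69 for photoreceptor and pineal markers.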

How the data were processed

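Total RNA of 8 pools of about 30 larvae was sequenced on the DNBSEQ platform, with strand-aware alignment and counting. According to their methods, the authors used SOAPnuke to filter reads, HISAT2 and Bowtie2 to align and RSEM to count genes, which shares reads between paralogs by estimate. They describe keeping genes above a mean of 1 CPM and transforming the matrix with voom of limma. The processing notes name GRCz11. The deposited file holds these log2 values for 20409 genes, and their near-identical sorted values are what quantile normalization leaves, a step that the sources used here do not name. The authors' comparison table holds their fold changes, test statistics and p-values, none of which was used, and served only to join symbols to gene identifiers.

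The comparison of mutants with controls used limma 3.58.1 (R 4.3.3), two-sided, with trend, Benjamini-Hochberg adjustment over all genes and a call at an adjusted p under 0.1. No gene was filtered and no pseudocount added. Standard errors are moderated, SDs are over 4 libraries, and 95% intervals come from the fit. The fit has no clutch term, as the methods name none. Clutch as a block was an alternative, and its value is printed where the call of a named gene changed. Labels give the clutch, and the methods say that both tubes of a batch were handled together. Once group means were removed, the partners of clutches 1 to 4 had correlations of 0.64, 0.325, 0.334 and 0.458, so the numbers pair the libraries. The fit without the clutch term was tested on simulated data. These held no clutch effect and planted differences larger than those of the members, so the test does not cover the clutch term or differences of their size. Figures used matplotlib 3.10.9 in Python 3.11.15.

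The members and gene lists were chosen with earlier results of these data known. The 17 lists hold 234 distinct symbols, of which 202 matched the deposited symbol, 4 a current or older symbol, and 24 were not among the genes; the rest named a gene already listed. The RefSeq table (assembly GRCz12tu) covers 96.2% of the genes, differs from GRCz11 and gave names and shared chromosomes only. Named genes are the members, called genes of each list (up to 4 by smallest p) or else its 2 of smallest p, and the 3 genes most like *tph2*, *th* and *slc6a3*. Named outside this rule, with their values seen, were *mao*, *comta*, *dbh*, *slc6a2*, *pts*, *gch2*, *spra*, *sprb*, *pcbd1*, *qdprb1*, *drd4b*, *drd4-rs*, *fev*, *lmx1ba*, *lmx1bb*, *gata2a*, *gata3*, *exorh*, *aanat2* and *asmt*. Other alternatives were no trend, robust moderation, vooma weights, weights per library, a filter at a mean log2 value of 1, an added pseudocount of 1, re-centring on 12 housekeeping genes (none called, median difference 0.02), an adjusted p under 0.05, and leaving out each library or clutch.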

Additional observations from a re-analysis of the deposited data

Results flagged for a closer look

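In 18 groups of 4 libraries (9 genes, 2 groups each), the library farthest from the rest was set against the range of its group by Dixon's criterion, which chance passes in about 1 in 20 groups. *slc6a3* in mutant 1 was low, at 2.19 log2 CPM, with the next mutant at 2.48. *tph1a* in control 4 was high, at 2.28 log2 CPM, with the next control at 1.59.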

How the results depend on the processing

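All 9 genes kept the sign of their difference under every alternative run. The count of the 9 called was 2, and 311 genes were called in all. With clutch as a replicate block the counts were 6 and 2927, at an adjusted p under 0.05 they were 0 and 206, with no trend 1 gene (*tph2*) of the 9 was called, and with weights per library 682 genes were called in all. Leaving out a library or a clutch gave 0 to 4 of the 9 and 80 to 1091 in all, and, in an alternative chosen after seeing the data, leaving out a clutch with the block kept gave 1 to 5 and 1289 to 2879 (1584 without clutch 2 and 1466 without clutch 4). Only *qdpra* was called with the block without each clutch in turn, with an adjusted p of up to 0.0876. Re-centring on housekeeping genes, robust moderation, vooma weights and a pseudocount of 1 left *tph2* and *qdpra* called. The filter at a mean log2 value of 1 removed *slc18a2*. Why the counts depend on single libraries was not tested.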

Other observations

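For other tissues that hold monoamine cells or use parts of the pathway, fixed marker lists were used. Beside the counts that follow, 1.16% of all genes were called lower and 0.363% higher. With the clutch term 7.86% were called lower and 6.48% higher. In RNA of whole larvae, the tissue that a marker transcript came from cannot be told. Of 13 enteroendocrine markers, *ccka*, the cholecystokinin gene, was called lower, with a log2 difference of -1.04 (adjusted p = 0.0148 from limma), with 0 called higher and a median of -0.16, and the clutch term gave 2 lower calls and 1 higher. Of 9 sympathoadrenal markers none was called (median -0.01), and 1 was lower and 1 higher with the block. They were *chgb*, a chromogranin-family gene of secretory granules (-0.24, adjusted p = 0.493 from limma, 0.0368 with the block), and *insm1a*, a zinc finger factor gene (0.21, adjusted p = 0.589 from limma, 0.0588 with the block).

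Of 13 pigment cell markers none was called (median 0.01), and 3 were lower with the block. Smallest in p were *pnp4a*, a purine gene of iridophores (-0.63, adjusted p = 0.567 from limma, 0.034 with the block), and *xdh*, the xanthine dehydrogenase gene (-0.41, adjusted p = 0.62 from limma, 0.0974 with the block). Of 11 liver markers none was called either (median 0.11), and the clutch term gave 1 lower call and 1 higher. Smallest in p were *ahsg1* (-0.67, adjusted p = 0.541 from limma, 0.107 with the block) and *tfa*, the transferrin gene (0.13, adjusted p = 0.57 from limma, 0.209 with the block). The 17 exocrine pancreas genes had negative differences throughout (median -1.15) with none called, and 16 were lower with clutch as a block. Smallest in p were *ctrb.2*, a chymotrypsinogen gene (-1.84, adjusted p = 0.466 from limma, 0.000164 with the block), and *ela2*, an elastase gene (-1.40, adjusted p = 0.482 from limma, 0.00014 with the block).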
